A study of Mus musculus with 54 samples.

Results

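Transforming growth factor β1 (TGF-β1) was tested on primary mouse lung fibroblasts. They were grown in a medium free of leucine, isoleucine and valine, the branched-chain amino acids (BCAA), to which BCAA were added back. The 6 libraries were chosen by their sample labels alone, 3 given TGF-β1 and 3 given PBS, and they are 6 of the 54 in the series and of the 24 from fibroblasts. The cells were wild type, came from lungs of mice aged 6 to 8 weeks, and were kept in DMEM/F-12 with 10% FBS under 5% oxygen and 5% CO2. After 24 h in this medium they received TGF-β1 at 20 ng/mL, or PBS as the control, for 48 h. The other fibroblast groups, each of 3 libraries, had complete medium, BCAA-free medium, or BCAA-free medium with the branched-chain keto acids (BCKA, the first breakdown products of BCAA), each with PBS or TGF-β1. All 24 libraries are labelled as 1 batch. The labels call them triplicates without saying whether cultures or animals were separate, so each p-value measures only the spread between these libraries, which may be technical.

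The deposited values are TPM, which scale each gene's reads by its length and give its share of the library, so a rise of abundant genes lowers the share of the rest. The sequencing depth behind them is unknown, and no counting interval is given. In the 6 libraries 15564 to 16578 genes were above 0, and libraries of the same group correlated at r = 0.995 to 0.997. The 10 most abundant genes held 7.29 to 7.47% of TPM with PBS and 11.3 to 12% with TGF-β1. Fibroblast genes were abundant in every library: Pdgfra averaged 1284 TPM with PBS and 872 TPM with TGF-β1, and Vim 1367 and 2000.0 TPM. The 10 fibroblast identity markers, which include Col1a1, Col1a2 and Col3a1, summed to 26400 to 28100 TPM with PBS and 47600 to 49300 TPM with TGF-β1. The markers did not rise together: in the test below 3 passed as higher and 4 as lower, against 11.5% and 33.2% of all genes tested. The 12 leukocyte markers summed to 5.18 to 6.08 TPM with PBS and 1.64 to 2.5 TPM with TGF-β1, with Cd8a, Ncr1 and S100a9 at 0 in all 6. The 12 epithelial markers summed to 10.7 to 12.8 and 5.16 to 6.12 TPM, with Cdh1 and Sftpa1 at 0, and the 12 endothelial markers to 14.6 to 17.6 and 13.5 to 17.4 TPM. In such bulk libraries fewer cells of a type and less RNA per cell cannot be told apart.

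TGF-β is secreted in a latent complex and, once released, binds type II and type I receptor kinases that phosphorylate SMAD2 and SMAD3, which enter the nucleus with SMAD4 and act on target genes. In the lung it turns resident fibroblasts into myofibroblasts, contractile cells rich in smooth muscle actin that lay down and crosslink collagen. BCAA feed both protein synthesis and, through leucine, the nutrient sensor mTORC1. When amino acids are short, the kinase GCN2 raises the transcription factor ATF4, which acts on genes of amino acid synthesis and uptake.

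Many contractile genes are known targets of serum response factor, which binds the CArG box. The strict CArG box was searched on both strands in the 250 bases before the RefSeq gene start (build GRCm38.p6, matched by symbol). It was present for 8 of the 26 contractile genes with an entry (30.8%), and for 1.62% of all 27025 symbols in that table and 1.38% of the 10412 tested genes with an entry. The 5 stretches below are from contractile genes that TGF-β1 raised, with the box in capitals and 25 bases on each side where the window allows.
Acta1 (chr8:123894814-123894873, minus strand): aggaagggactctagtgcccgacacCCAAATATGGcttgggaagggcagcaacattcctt
Myl9 (chr2:156775278-156775337, plus strand): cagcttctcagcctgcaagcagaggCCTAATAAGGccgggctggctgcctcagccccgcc
Cnn2 (chr10:79988519-79988578, plus strand): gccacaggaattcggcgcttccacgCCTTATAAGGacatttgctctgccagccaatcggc
Ldb3 (chr14:34588682-34588741, minus strand): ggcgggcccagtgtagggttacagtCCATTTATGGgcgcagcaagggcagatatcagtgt
Myl6 (chr10:128493025-128493084, minus strand): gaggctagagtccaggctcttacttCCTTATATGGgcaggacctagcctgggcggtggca
The box ends 63 bases before the start in Acta1, 151 in Myl9, 46 in Cnn2, 25 in Ldb3 and 40 in Myl6. The other 3 genes with a box were Actc1, which was too low to be tested, Vcl, which did not pass, and Srf. Acta2 and Cnn1 had an entry without a strict match. A match is a description of letters in this window, not a site or a cause.

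With BCAA returned, TGF-β1 changed the share of 5856 of 13084 genes tested (44.8%) at a limma adjusted p under 0.05, with 1509 higher (11.5%) and 4347 lower (33.2%). By at least 2-fold, a difference of 1 on the log2(TPM + 1) scale used for all differences here, 373 genes rose and 976 fell. The median gene differed by -0.18, so the surplus of falls depends on the scale. Centring each library at its median log2 ratio to the gene means of all fibroblast libraries gave 2550 genes higher and 2715 lower. Counts of gene groups are therefore given both ways, and are to be read against these shares. The PBS and TGF-β1 libraries did not overlap for 69.1% of genes tested, 20% with TGF-β1 above and 49.1% with TGF-β1 below. Without the replicate 1 library of the BCAA-free TGF-β1 group, which stands apart from its group and enters only the shared estimate of spread here, 7278 genes passed. With only the 2 groups compared in the fit 8648 genes passed, 2479 higher and 6169 lower, so the shares depend on the fit. The gene groups described below differ widely in their split, from the contractile and sterol genes to the complement genes.

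**Figure D1:**
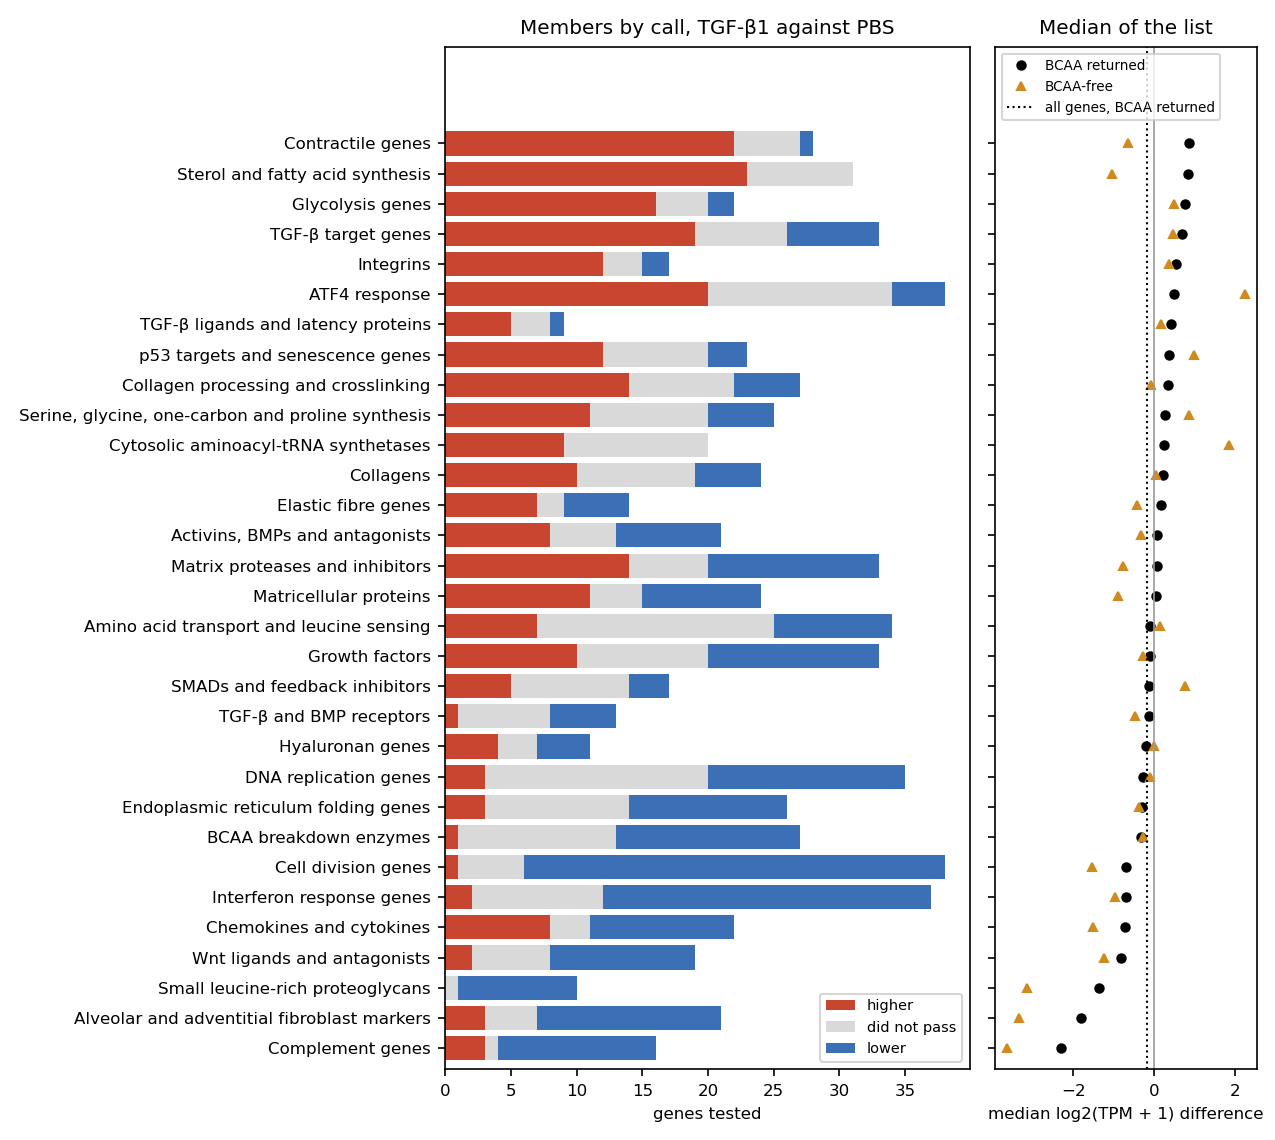
Gene groups ordered by their median response to TGF-β1 with BCAA returned. The left panel gives the number of tested members of each group that were higher (red), lower (blue) or did not pass (grey), and the right panel gives the median log2(TPM + 1) difference with BCAA returned (circles) and in BCAA-free medium (triangles), the dotted line being the median of all genes, -0.18. Contractile genes are at the top with 22 of 28 higher, and complement genes at the bottom with 12 of 16 lower.

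Among the ligands and the proteins that keep them latent, 5 of 9 rose and 1 fell (7 higher and 0 lower after centring). Tgfb1 was 37.0, 38.3 and 37.0 TPM in the PBS libraries and 83.9, 80.9 and 75.7 TPM in the TGF-β1 libraries. The groups did not overlap, and the ligand's own transcript rose by 1.08 (SE 0.160, adjusted p = 9.68e-06). Tgfb2 rose from a mean of 4.77 to 13.2 TPM, a difference of 1.30. Ltbp2 was 488, 476 and 466 TPM in the PBS libraries and 5318, 4950.5 and 5236 TPM in the TGF-β1 libraries. Every TGF-β1 library was far above every PBS library for this matrix protein of the latent TGF-β binding family, and Ltbp2 rose by 3.44 (SE 0.109, adjusted p = 1.12e-16). Lrrc32, which holds latent TGF-β at the cell surface, rose from 157 to 714 TPM (2.17). Ltbp3 was the member that fell, by 0.34, and its call was lost after centring and when any 1 of the 6 libraries was left out.

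Receptors were called in shares near those of all genes tested, 11.5% higher and 33.2% lower. Of 13 TGF-β and BMP receptors and co-receptors, 1 rose and 5 fell (1 higher and 4 lower after centring). Tgfbr2 was 371, 348 and 387 TPM in the PBS libraries and 219, 208 and 221 TPM in the TGF-β1 libraries. All 3 TGF-β1 libraries lay below the PBS libraries for this type II receptor, and Tgfbr2 fell by 0.77 (SE 0.103, adjusted p = 2.28e-06). Tgfbr3, or betaglycan, fell by 0.99, from 717 to 361 TPM. The type I receptor Tgfbr1 averaged 65.0 TPM with PBS and 61.1 TPM with TGF-β1, a difference of -0.09 that did not pass and became positive after centring. The member that rose was Bmpr1b, a BMP type I receptor, from 5.16 to 9.32 TPM (0.75).

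Of 17 SMADs and feedback inhibitors, 5 rose and 3 fell (6 higher and 2 lower after centring), and the rises were among the genes that restrain the pathway. Smad7 was 23.2, 26.7 and 25.1 TPM in the PBS libraries and 60.3, 55.0 and 54.2 TPM in the TGF-β1 libraries. The TGF-β1 libraries were all higher for this inhibitory SMAD, and Smad7 rose by 1.15 (SE 0.121, adjusted p = 7.64e-08). Pmepa1, which sequesters receptor SMADs, rose from 103 to 240.3 TPM (1.22). Ldlrad4, Skil and Smurf1, also negative regulators, rose by 0.87, 0.68 and 0.44. Smad3, the signal-carrying SMAD, fell by 0.53, from 154 to 106 TPM. Smad2 and Smad4 did not pass, at -0.21 and -0.20. Without replicate 1 of the BCAA-free TGF-β1 group in the fit, 5 members of this group passed as lower. With only the 2 groups compared in the fit 8 members passed as lower, so the balance of rises and falls depends on the fit.

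Of the 33 genes listed as TGF-β targets, 19 rose, 7 fell and 7 did not pass the test, with a median log2 difference of 0.69 (19 higher and 5 lower after centring), against 11.5% and 33.2% of all genes tested. Ccn2 was 118, 119 and 103 TPM in the PBS libraries and 1142, 992 and 1159 TPM in the TGF-β1 libraries. The connective tissue growth factor gene therefore had no overlap between the groups, and it rose by 3.26 (SE 0.0957, adjusted p = 3.34e-17). Il11, a cytokine of the interleukin 6 family, was 1.23, 1.08 and 1.75 TPM with PBS and 13.2, 13.9 and 12.2 TPM with TGF-β1, and it rose by 2.59. Lif, of the same family, rose from 4.49 to 58.2 TPM (3.42). The transcription factor gene Snai1 rose by 1.14, while Zeb1 fell by 0.65. Angptl4, an inhibitor of lipoprotein lipase listed as a target, fell from 328 to 82.8 TPM (-1.97).

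The contractile apparatus rose together. Of 28 contractile genes tested, 22 rose, 1 fell and 5 did not pass the test, with a median log2 difference of 0.86 (22 higher and 0 lower after centring). Acta2 was 758, 743 and 693 TPM in the PBS libraries and 2257, 2481 and 2095 TPM in the TGF-β1 libraries. Smooth muscle α-actin, the usual myofibroblast marker, thus had no overlap between the groups and rose by 1.63 (SE 0.160, adjusted p = 2.30e-08). Tagln was 376, 379 and 342 TPM in the PBS libraries and 1507, 1716 and 1471 TPM in the TGF-β1 libraries. Transgelin, an actin-binding protein, rose by 2.09 (SE 0.135, adjusted p = 2.18e-11). Cnn1 was 26.8, 24.8 and 23.9 TPM in the PBS libraries and 137, 145 and 138 TPM in the TGF-β1 libraries. Each TGF-β1 library was above each PBS library for calponin 1, and Cnn1 rose by 2.43 (SE 0.204, adjusted p = 1.99e-09).

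Acta1, the skeletal muscle actin whose promoter is shown above, was 0.245, 0.361 and 0.150 TPM with PBS and 81.0, 88.7 and 79.4 TPM with TGF-β1. It was near the limit of detection in every PBS library, and its rise of 6.07 (adjusted p = 3.27e-20) was the second largest by the rule for named genes. The actins are similar in sequence, so reads between Acta1, Acta2 and Actg2 may be split uncertainly. Myl9 was 184, 182 and 168 TPM in the PBS libraries and 316, 336 and 312 TPM in the TGF-β1 libraries. The myosin light chain Myl9 rose by 0.85 (SE 0.114), with no overlap. Cnn2 rose by 0.73, Myl6 by 0.83 and Ldb3, at 4.19 and 8.56 TPM a low gene, by 0.88. Nonmuscle myosin heavy chain Myh9 and the actin crosslinker Actn1 rose by 1.07 and 1.45. Srf itself fell by 0.45, from 69.7 to 50.8 TPM, a call lost after centring, while Mrtfa, its actin-regulated cofactor, rose by 0.53. Vcl, Mylk and Myh10 did not pass, at 0.01, 0.01 and 0.13. The 12 pericyte and smooth muscle markers, which share Myh11, Actg2 and Lmod1 with this group, summed to 720 to 769 TPM with PBS and 996 to 1070 TPM with TGF-β1, with Higd1b at 0, and the part of such cells in the rise was not tested.

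**Figure D2:**
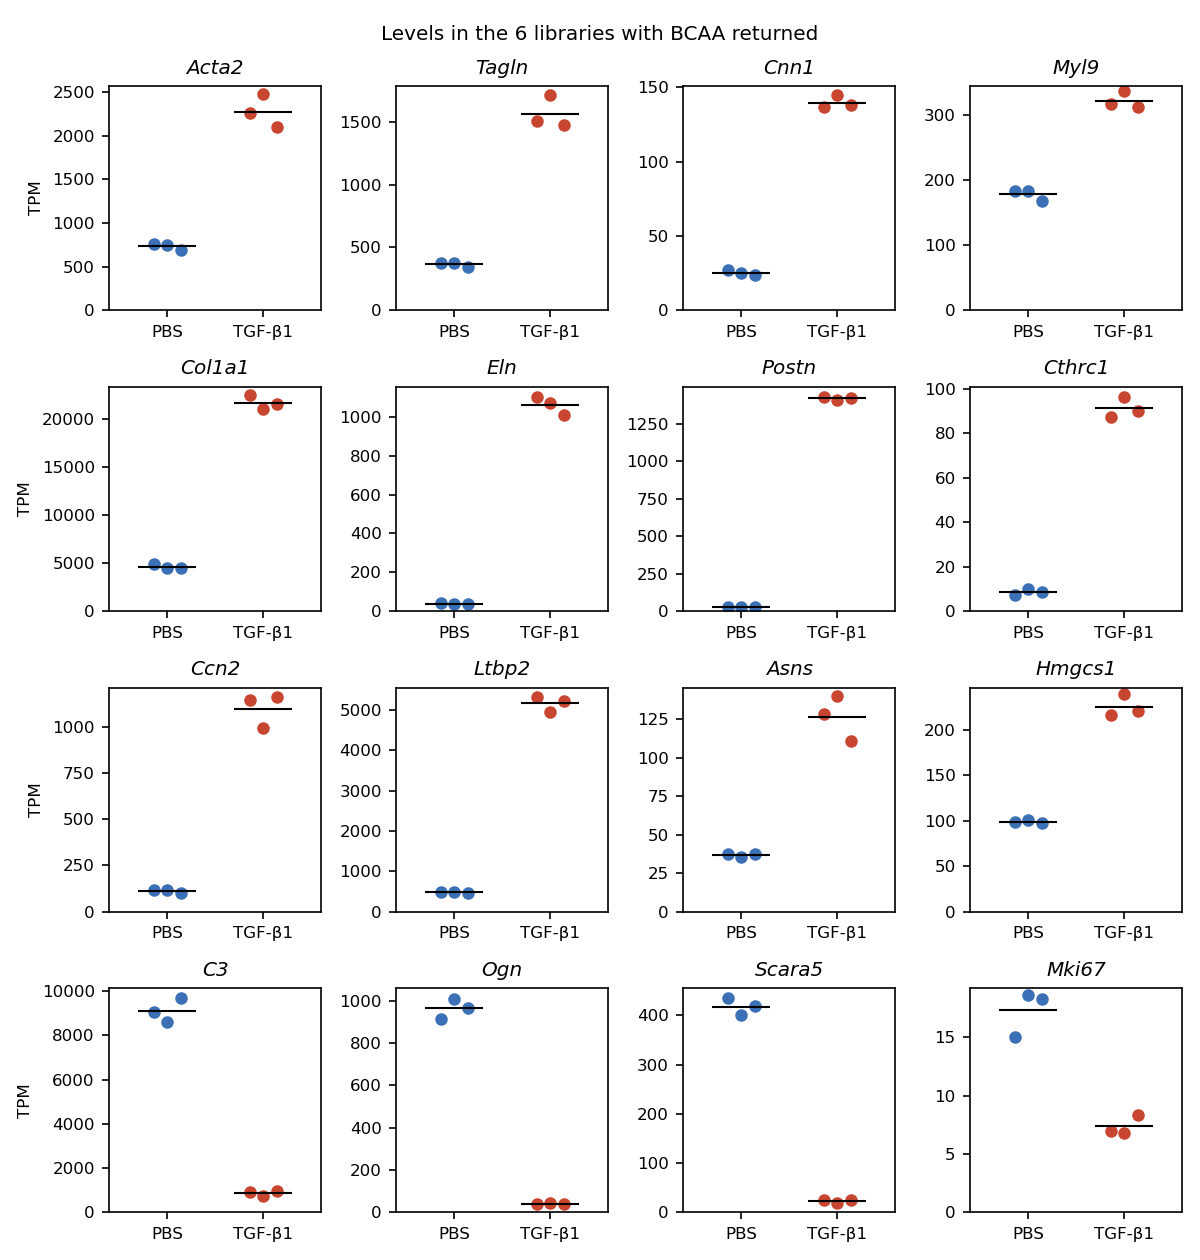
TPM of 16 genes in the 6 libraries with BCAA returned, 3 with PBS (blue) and 3 with TGF-β1 (red), on linear axes from 0. Each point is a library and each line the mean of a group. For each of the 16 genes the groups do not overlap, with contractile, matrix and target genes higher and C3, Ogn, Scara5 and Mki67 lower with TGF-β1.

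Collagen genes split by type. Of 24 tested, 10 rose and 5 fell (10 higher and 2 lower after centring). Col1a1 was 4877, 4488 and 4506 TPM in the PBS libraries and 22479, 21043 and 21595 TPM in the TGF-β1 libraries. The chain of type I collagen was higher in every TGF-β1 library, and Col1a1 rose by 2.23 (SE 0.370, adjusted p = 3.76e-05). Col1a2, its partner chain, rose from 6887 to 15298 TPM (1.15). The fibril regulators Col5a1 and Col5a2 of type V rose, with Col5a1 higher by 1.23, as did Col11a1 (2.41) and Col12a1 (2.41). Type VI chains, which form beaded microfibrils, fell, Col6a1 by 0.96, Col6a2 by 0.46 and Col6a3 by 0.48, the last 2 calls being lost after centring. Col14a1 fell from 87.9 to 14.3 TPM (-2.55). Without replicate 1 of the BCAA-free TGF-β1 group in the fit, 8 collagen genes passed as lower.

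Type III collagen was lower in level but did not pass the test. Col3a1 was 11709, 10908 and 11006 TPM in the PBS libraries and 7133, 7072 and 7027 TPM in the TGF-β1 libraries. Every TGF-β1 library was below every PBS library, yet the difference of -0.66 (SE 0.294, adjusted p = 0.0724) missed the threshold in the fit of all 24 libraries. With only the 2 groups compared in the fit it passed at an adjusted p of 9.63e-08, and without replicate 1 of the BCAA-free TGF-β1 group at 6.05e-06. Fn1, which encodes fibronectin, was 9593, 9709 and 11631 TPM with PBS and 10344, 8489.9 and 10485 TPM with TGF-β1. These libraries overlapped, and the difference of -0.08 (adjusted p = 0.835) did not pass and turned positive after centring.

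Of 27 genes that modify, fold or crosslink collagen, 14 rose and 5 fell (15 higher and 3 lower after centring). With only the 2 groups compared in the fit 9 passed as lower. The lysyl oxidases, which crosslink collagen and elastin, rose in all 5 members. Lox was 2608, 2924 and 2742 TPM in the PBS libraries and 9707, 9537 and 10051 TPM in the TGF-β1 libraries. No TGF-β1 library overlapped the PBS libraries, and Lox rose by 1.83 (SE 0.184, adjusted p = 3.72e-08). Loxl3 rose by 2.67, Loxl2 by 1.33, Loxl4 by 1.21 and Loxl1 by 0.50. The prolyl 4-hydroxylase subunits P4ha1, P4ha2 and P4ha3 rose by 1.20, 1.58 and 2.09. Adamts2 and Adamts3, proteases that trim the amino end of procollagen, fell by 1.17 and 3.39.

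Matricellular proteins divided almost evenly, with 11 of 24 higher and 9 lower (11 higher and 9 lower after centring). Postn was 27.1, 26.8 and 27.0 TPM in the PBS libraries and 1428, 1409 and 1423 TPM in the TGF-β1 libraries. Periostin, an adhesion protein of injured tissue, had no overlap between the groups, and Postn rose by 5.67 (SE 0.160, adjusted p = 1.72e-17). Cthrc1 was 7.40, 9.99 and 8.68 TPM in the PBS libraries and 87.5, 96.6 and 90.0 TPM in the TGF-β1 libraries. For this secreted protein of fibrotic fibroblasts every TGF-β1 library was higher, and Cthrc1 rose by 3.26 (SE 0.150, adjusted p = 6.54e-14). Thbs1, an activator of latent TGF-β, rose from 3068 to 18089 TPM (2.56). Tenascin-X, encoded by Tnxb, fell by 3.77, and Tgfbi, a gene named for its induction by TGF-β, fell by 1.45, from 12.3 to 3.89 TPM.

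Elastic fibre genes gave 7 rises and 5 falls among 14 (7 higher and 3 lower after centring). Eln was 40.9, 38.3 and 34.7 TPM in the PBS libraries and 1104, 1072 and 1009 TPM in the TGF-β1 libraries. Elastin had no overlap between the groups and rose by 4.77 (SE 0.371, adjusted p = 5.18e-10). Fbln5, which guides elastin assembly, rose by 1.52, while Efemp1, another fibulin, fell from 1089 to 126 TPM (-3.10). The small leucine-rich proteoglycans, which bind collagen fibrils and growth factors, fell in 9 of 10 (1 higher and 8 lower after centring). Ogn was 916, 1011 and 965 TPM in the PBS libraries and 41.7, 42.2 and 42.1 TPM in the TGF-β1 libraries. Osteoglycin was lower in all 3 TGF-β1 libraries by a wide margin, and Ogn fell by 4.49 (SE 0.234, adjusted p = 5.61e-13). Dcn was 524, 523 and 547 TPM in the PBS libraries and 47.3, 40.5 and 45.3 TPM in the TGF-β1 libraries. Decorin, which can bind TGF-β, also had no overlap and fell by 3.55. Bgn, or biglycan, averaged 5242 TPM with PBS and 9352 TPM with TGF-β1, a difference of 0.83 (adjusted p = 0.0659) that did not pass but did after centring. Without replicate 1 of the BCAA-free TGF-β1 group in the fit, 1 member of this group passed as higher.

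Integrins, the receptors that tie cells to matrix, rose in 12 of 17 and fell in 2 (12 higher and 2 lower after centring). Itga11 was 34.2, 35.5 and 37.6 TPM in the PBS libraries and 586, 502 and 585 TPM in the TGF-β1 libraries. The α11 subunit, a collagen receptor of myofibroblasts, had no overlap, and Itga11 rose by 3.92 (SE 0.155, adjusted p = 4.47e-15). The fibronectin receptor subunit Itga5 rose from 158 to 871 TPM (2.45). Itga1 and Itgb8 fell by 0.83 and 1.02. Of 33 matrix proteases and inhibitors, 14 rose and 13 fell (16 higher and 13 lower after centring). The inhibitor Timp1 rose by 0.81, from 670.1 to 1179 TPM, and Timp3 by 2.02, whereas Timp2 fell by 1.10. The stromelysin Mmp3 fell from 2132 to 699.6 TPM (-1.61) and the gelatinase Mmp2 by 0.67.

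Secreted growth factors held both the largest rise and 1 of the largest falls among named genes, and both were carriers of insulin-like growth factor. Igfbp2 was 5.59, 4.77 and 3.65 TPM in the PBS libraries and 434, 458 and 420.0 TPM in the TGF-β1 libraries. Igfbp2 was barely present with PBS and abundant with TGF-β1, and Igfbp2 rose by 6.29 (SE 0.248, adjusted p = 4.47e-15). Igfbp5 was 282, 284 and 329 TPM in the PBS libraries and 6.37, 4.65 and 6.61 TPM in the TGF-β1 libraries. Igfbp5 showed the reverse, with no overlap, and Igfbp5 fell by 5.45 (SE 0.238, adjusted p = 2.77e-14). Igf1 and Igf2 fell by 0.84 and 2.06, and Hgf and Fgf10, which act on epithelium, fell by 1.44 and 1.45. Fgf2 rose by 1.51 and Vegfa by 1.18. Of 33 growth factor genes, 10 rose and 13 fell (10 higher and 12 lower after centring). Among activins, BMPs and their antagonists 8 of 21 rose and 8 fell (9 higher and 6 lower after centring). Grem1, a BMP antagonist, rose from 94.9 to 215 TPM (1.17), while Bmp4 and Gdf10 fell by 1.30 and 2.99.

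Complement proteins, which lung fibroblasts secrete, had large falls. Of 16 complement genes, 3 rose, 12 fell and 1 did not pass the test, with a median log2 difference of -2.30 (3 higher and 12 lower after centring). C3 was 9057, 8586 and 9685 TPM in the PBS libraries and 935, 739.9 and 958 TPM in the TGF-β1 libraries. The central complement component was lower in every TGF-β1 library, and C3 fell by 3.38 (SE 0.171, adjusted p = 3.11e-13). C7 was 277, 208 and 289 TPM in the PBS libraries and 2.77, 0.971 and 1.61 TPM in the TGF-β1 libraries. C7, a terminal component, had the largest fall by the rule for named genes and fell by 6.57 (adjusted p = 5.54e-16). Masp1, a protease of the lectin pathway, and the membrane inhibitor Cd59a rose by 1.54 and 0.66.

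Of 22 chemokines and cytokines, 8 rose and 11 fell (8 higher and 11 lower after centring). Cxcl13 was 115, 129 and 122 TPM in the PBS libraries and 0.909, 0.920 and 1.18 TPM in the TGF-β1 libraries. This B cell attractant was close to absent with TGF-β1, and Cxcl13 fell by 5.94 (SE 0.140, adjusted p = 1.29e-18). Cxcl5 fell by 5.27, Ccl2, a monocyte attractant, by 2.15, and Il33 by 2.23. Csf1, the macrophage growth factor, rose from 794 to 1998 TPM (1.33) and Cxcl14 by 2.37. Interferon response genes fell in 25 of 37 and rose in 2 (2 higher and 18 lower after centring), with 0 rises when replicate 1 of the TGF-β1 group was left out. Ifitm1 fell by 3.10 and Gbp2 by 1.33. The 12 macrophage markers summed to 53.1 to 61.3 TPM with PBS and 25.6 to 28.9 TPM with TGF-β1. Most of that was Cd14, at 50.0 and 16.1 TPM. Of the 4 macrophage markers tested, Cd14 and Lyz2 fell, and Cd68 and Csf1r rose, by 1.64 and 0.43. The markers Adgre1, Siglecf and Itgax were at 0 in all 6 libraries. The part of such cells in these falls was not tested.

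Markers of alveolar and adventitial fibroblasts, the resting types of lung, fell in 14 of 21 and rose in 3 (3 higher and 14 lower after centring). Scara5 was 434, 399.5 and 418 TPM in the PBS libraries and 25.3, 18.3 and 25.6 TPM in the TGF-β1 libraries. This ferritin receptor had no overlap, and Scara5 fell by 4.13 (SE 0.211, adjusted p = 3.83e-13). Inmt, a methyltransferase, fell by 4.58, the alcohol dehydrogenase Adh1 by 4.79, and the transcription factor Tcf21 by 0.98. Itga8, Mfap4 and Wnt2 rose, by 0.90, 1.69 and 1.37, the last from 0.474 TPM. The 7 mesothelial markers also summed lower, 102 to 106 TPM with PBS and 41.8 to 46 TPM with TGF-β1, and the part of such cells in these falls was not tested.

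Genes of cell division fell in 32 of 38, and 1 rose, Anln (1 higher and 24 lower after centring). Mki67 was 15.1, 18.6 and 18.3 TPM in the PBS libraries and 7.00, 6.79 and 8.35 TPM in the TGF-β1 libraries. The proliferation marker had no overlap between the groups, and Mki67 fell by 1.13 (SE 0.176, adjusted p = 1.87e-05). Cyclin B1 (Ccnb1) and the kinesin Kif20a fell by 1.04 and 1.19. Cdkn1a, the p21 inhibitor of cyclin-dependent kinases, averaged 253 TPM with PBS and 676 TPM with TGF-β1. It was higher in all TGF-β1 libraries and rose by 1.41 (SE 0.0776, adjusted p = 1.35e-12). Anln, an actin-binding protein of cytokinesis, rose by 0.57.

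Metabolic genes moved in groups as well. Of 22 glycolysis genes, 16 rose, 2 fell and 4 did not pass the test, with a median log2 difference of 0.76 (17 higher and 1 lower after centring). Pgk1 was 325, 327 and 307 TPM in the PBS libraries and 787, 808 and 739 TPM in the TGF-β1 libraries. Phosphoglycerate kinase had no overlap, and Pgk1 rose by 1.28 (SE 0.0875, adjusted p = 6.10e-11). Hexokinase 2 (Hk2) rose from 17.6 to 56.6 TPM (1.63), Pkm by 1.02 and the lactate exporter Slc16a3 by 1.41. Pfkfb3, which makes an activator of phosphofructokinase, fell by 0.62. Of 31 sterol and fatty acid synthesis genes, 23 rose, 0 fell and 8 did not pass the test, with a median log2 difference of 0.83 (27 higher and 0 lower after centring). Hmgcs1 was 98.8, 101 and 97.0 TPM in the PBS libraries and 216, 239 and 221 TPM in the TGF-β1 libraries. HMG-CoA synthase, an early enzyme of the mevalonate pathway, was higher in every TGF-β1 library, and Hmgcs1 rose by 1.18 (SE 0.105, adjusted p = 4.99e-09). The desaturase Scd1 rose by 1.52.

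With BCAA present, TGF-β1 also raised genes of amino acid supply. Of 38 ATF4 response genes, 20 rose, 4 fell and 14 did not pass the test, with a median log2 difference of 0.50 (23 higher and 4 lower after centring). With array weights, which give each library its own weight in the fit, 8 passed as lower. Asns was 37.3, 35.2 and 37.4 TPM in the PBS libraries and 128, 140.2 and 111 TPM in the TGF-β1 libraries. Asparagine synthetase had no overlap, and Asns rose by 1.75 (SE 0.153, adjusted p = 3.80e-09). Psat1 and Phgdh of serine synthesis rose by 1.12 and 0.69, and mitochondrial Mthfd2 and Aldh1l2 of the folate cycle by 1.93 and 2.31. For proline, abundant in collagen, Aldh18a1 and Pycr1 rose by 0.88 and 1.19. The stress genes Ddit3 and Atf3 of the same group did not pass, at -0.22 and -0.32, and Atf4 passed only after centring (0.28 without it). The serine, glycine, one-carbon and proline genes gave 11 rises and 5 falls among 25 (12 higher and 3 lower after centring), with 3 falls when PBS replicate 3, TGF-β1 replicate 1 or TGF-β1 replicate 3 was left out. With array weights 8 of these 25 passed as lower. The cytosolic aminoacyl-tRNA synthetases gave 9 rises among 20 and no fall (13 higher and 0 lower after centring). With only the 2 groups compared in the fit 1 synthetase passed as lower.

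The enzymes that break down BCAA fell in 14 of 27 and rose in 1 (1 higher and 9 lower after centring), against 33.2% lower and 11.5% higher of all genes tested. Leaving out 1 library gave 10 to 15 falls. Bcat1 was 16.7, 14.7 and 16.1 TPM in the PBS libraries and 51.9, 57.5 and 52.9 TPM in the TGF-β1 libraries. The cytosolic aminotransferase, which takes the first step, had no overlap and was the member that rose, by 1.71 (SE 0.129, adjusted p = 3.09e-10). Bckdha was 78.6, 70.4 and 66.7 TPM in the PBS libraries and 35.0, 35.6 and 38.8 TPM in the TGF-β1 libraries. This subunit of the keto acid dehydrogenase, the committed step, was lower in every TGF-β1 library, and Bckdha fell by 0.96 (SE 0.112, adjusted p = 3.33e-07). Bcat2, the mitochondrial aminotransferase, fell by 0.36 (adjusted p = 0.0322). The Bcat2 call was lost after centring (adjusted p = 0.32) and when any 1 of 4 libraries was left out. Bckdk, the kinase that switches the dehydrogenase off, did not pass, at -0.02, and became positive after centring. Among transporters and leucine sensors 7 of 34 rose and 9 fell (10 higher and 7 lower after centring), against 11.5% higher and 33.2% lower of all genes tested, and nothing is read from that count. Without replicate 1 of the BCAA-free TGF-β1 group in the fit, 2 breakdown enzymes and 11 transport and sensing genes passed as higher. With only the 2 groups compared in the fit, 11 transport and sensing genes passed as higher and 15 as lower. Slc7a5, the main leucine importer, rose from 27.2 to 74.6 TPM (1.41), and Slc7a8, another carrier of large neutral amino acids, fell from 15.4 to 0.587 TPM (-3.39).

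The response in complete medium, was measured on 6 other libraries. There TGF-β1 changed 6357 genes (48.6%), 1590 higher and 4767 lower. Of the genes called with BCAA returned, 87.93% were called in complete medium in the same direction, which is 81% of the calls there. Both sets of calls use the same estimate of each gene's spread, so they are not independent. These 5149 genes were 1283 higher in both and 3866 lower in both, and no gene passed in opposite directions. Across the 13084 genes, which are not independent of each other, the log2 differences correlated at r = 0.966 and Spearman's rho = 0.933. All 1614 genes past 2-fold in either medium had the same sign in both, and their largest difference between media was 1.22. Replicate 2 of the TGF-β1 group in complete medium correlated at 0.984 to 0.985 with its group.

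**Figure D3:**
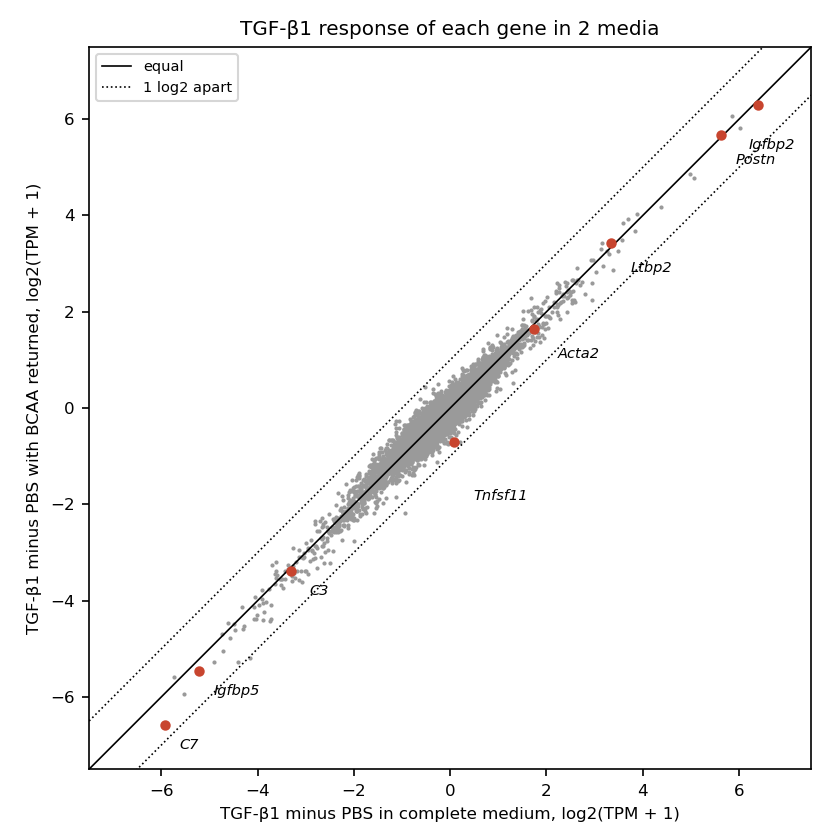
TGF-β1 minus PBS on the log2(TPM + 1) scale for each of 13084 genes, in complete medium (x axis) and with BCAA returned (y axis). The solid line marks equal responses and the dotted lines a difference of 1, and 8 genes named in the text are in red. The points lie along the line of equality from C7 at the lower left to Igfbp2 at the upper right, with r = 0.966.

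The difference of the responses itself was tested gene by gene. By limma 0 genes (0%) passed, and an unadjusted p under 0.05 was reached by 68 genes upward and 95 downward. A p that misses the threshold does not show equal responses, so intervals are given. The 95% interval of the difference lay within 1 of 0 for 12440 genes (95.1%) and within 0.5 for 4713 (36%). Acta2 rose by 1.63 with BCAA returned and 1.74 in complete medium, a difference of -0.11 (95% interval -0.57 to 0.36). Its interval leaves room for changes of under 2-fold only. For Col1a1 the difference was -0.10 (-1.19 to 0.98), the interval being wide. Every interval rests on the spread of all 24 libraries, among them the BCAA-free TGF-β1 library that stands apart. For Ccn2 it was 0.00 (-0.28 to 0.28), for Asns -0.17 (-0.62 to 0.28) and for C3 -0.07 (-0.57 to 0.43). Tnfsf11, the osteoclast factor RANKL, was at -0.71 with BCAA returned and 0.09 in complete medium, a gap of -0.80 that did not pass (adjusted p = 1.00), and it was picked after its values were seen.

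Levels were compared between the same media too. With PBS, 0 genes (0%) differed between BCAA returned and complete medium by limma, and 91 higher and 47 lower genes had an unadjusted p under 0.05. With TGF-β1, 2 genes (0.0153%) passed, both of the acute phase. Hp, or haptoglobin, was 12.6, 12.6 and 12.9 TPM with BCAA returned and 22.1, 24.9 and 23.3 TPM in complete medium, a difference of -0.84 (adjusted p = 0.0401). Lrg1 was 2.64, 1.79 and 3.23 TPM with BCAA returned and 5.42, 6.31 and 5.00 TPM in complete medium, a difference of -0.90 (adjusted p = 0.0401). Both are among the genes that TGF-β1 lowered most, since Hp fell by 5.28 and Lrg1 fell by 5.19 with BCAA returned. Neither level call held after centring (adjusted p = 0.129 and 0.0899) or with only the compared groups in the fit (0.251 and 0.93), and that of Hp was lost when any 1 of the 6 compared libraries was left out.

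Against BCAA-free medium the responses differed for 5882 genes (45%), with 2344 more positive with BCAA returned (17.9%) and 3538 more negative (27%). After centring these were 2922 and 2813. Replicate 1 of the BCAA-free TGF-β1 group stands apart: its correlation with the other 2 libraries was 0.953 to 0.966, and Rpl31 was 15.2, 573 and 352 TPM in the 3 libraries. Without that library 7040 genes passed, 2418 more positive and 4622 more negative. Contractile genes were more positive with BCAA returned in 23 of 28 and more negative in none, with or without that library. In the BCAA-free medium, where 8381 genes passed (64.1%, with 29.2% higher and 34.9% lower), 6 of them rose and 20 fell with TGF-β1. Acta2 there was 1054, 1210.3 and 1134 TPM with PBS and 109, 205 and 167 TPM with TGF-β1. So it fell by 2.86 where it rose by 1.63 with BCAA returned, a difference of 4.49 (SE 0.226, adjusted p = 9.86e-13).

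Sterol and fatty acid genes were more positive with BCAA returned in 27 of 31 and more negative in none, again with or without that library. Hmgcs1 differed by 2.37 and Scd2 by 2.91. Of the cell division genes 31 of 38 were more positive and none more negative. In the BCAA-free medium all 38 fell. Mki67 fell by 2.75 there and by 1.13 with BCAA returned. Matrix genes with a more positive response included Itga11, at 3.92 against -0.09, Cthrc1, at 3.26 against -1.24, and Thbs1, at 2.56 against -0.83. Postn, Ccn2 and Ltbp2 rose in both media, and their differences were 0.43 (95% interval -0.04 to 0.90), 0.14 (-0.14 to 0.42) and 0.26 (-0.06 to 0.58).

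ATF4 response genes went the other way, with 33 of 38 more negative with BCAA returned and 2 more positive (33 and 1 without the library that stands apart), and so did 19 of 20 aminoacyl-tRNA synthetases. Elements of the kind ATF4 binds with its partners hold the letters TGATGNAA, searched on both strands in the same 250 bases. They were present for 8 of 33 ATF4 response genes with an entry (24.2%), 3.91% of all symbols and 2.39% of tested genes with an entry. The 3 stretches below are from genes with rises in both media, with the element in capitals, read on the gene's strand in Asns and as its reverse complement in Chac1 and Nupr1.
Asns (chr6:7693210-7693257, minus strand): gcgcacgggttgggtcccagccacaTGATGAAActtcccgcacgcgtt
Chac1 (chr2:119351024-119351081, plus strand): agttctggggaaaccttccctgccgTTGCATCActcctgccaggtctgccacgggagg
Nupr1 (chr7:126625548-126625605, minus strand): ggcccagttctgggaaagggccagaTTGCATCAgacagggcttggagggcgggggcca
The element ends 15 bases before the start in Asns, 185 in Chac1 and 102 in Nupr1. Asns rose by 1.75 with BCAA returned and by 2.49 in BCAA-free medium, Chac1 by 1.69 and 3.55, and Nupr1 by 1.27 and 2.44. The differences were -0.74, -1.86 and -1.17 (adjusted p = 0.00825, 1.17e-05 and 8.26e-04).

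**Figure D4:**
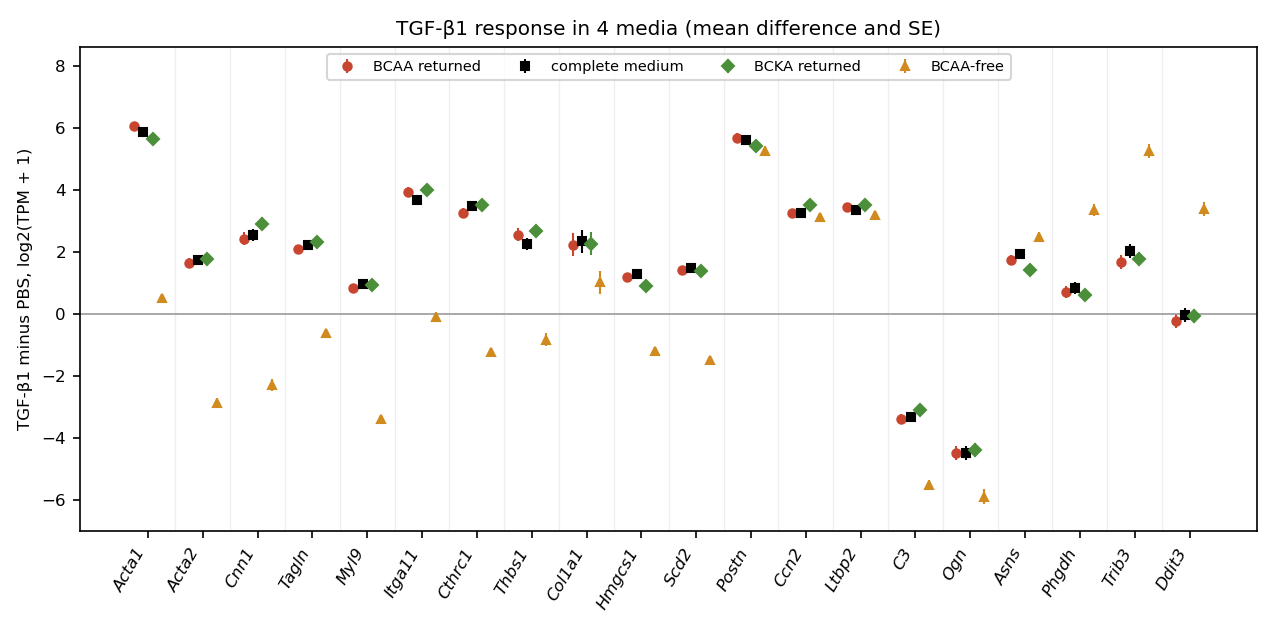
TGF-β1 minus PBS on the log2(TPM + 1) scale for 20 genes in 4 media, with the SE of the fit as bars (n = 3 libraries per group). The circles (BCAA returned), squares (complete medium) and diamonds (BCKA returned) lie close together for each gene. The triangles (BCAA-free) lie below 0 for Acta2, at -2.86, and far above the others for Trib3 and Ddit3.

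Responses with the keto acids returned in place of BCAA differed for 3 genes (0.0229%) by limma, and an unadjusted p under 0.05 was reached by 198 genes upward and 200 downward. The 95% interval of this difference lay within 1 of 0 for 12382 genes (94.6%). TGF-β1 changed 5996 genes with BCKA returned (45.8%), 1504 higher and 4492 lower. The 3 genes whose responses differed included Dpt and Clec3b. Dermatopontin (Dpt), a matrix protein of adventitial fibroblasts, was 23.3, 22.0 and 25.8 TPM with PBS and 0.909, 0.664 and 0.973 TPM with TGF-β1 when BCAA were returned. With BCKA it was 9.30, 11.9 and 9.66 TPM with PBS and 1.58, 1.10 and 0.948 TPM with TGF-β1. Dpt fell by 3.74 with BCAA and fell by 2.35 with BCKA, a difference of -1.39 (adjusted p = 0.00124). With a pseudocount of 0.1 this call was lost (adjusted p = 0.104), the TGF-β1 levels being close to 0. Clec3b differed by -1.25 (adjusted p = 0.0367), a call that was lost without any 1 of 11 of the 12 compared libraries and kept without replicate 2 of the PBS group with BCAA returned. The Clec3b call was also lost with a pseudocount of 0.5 (adjusted p = 0.204) or 0.1. With each library left out in turn the count was 1 to 13, the highest without replicate 1 of the BCAA-free TGF-β1 group, and with only the compared groups in the fit it was 24.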

How the data were processed

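Poly(A) RNA-seq of mouse lung fibroblasts was deposited as 1 table of TPM for 24 libraries and 26264 genes, made by the authors. HISAT2, featureCounts, Subread, DESeq2, Trim Galore, FastQC and the build mm39 are named, with no version or role, per the submitters' processing notes. The annotation and the strand setting are not given in the sources used here. Libraries were grouped by title. The 13084 genes that reached a TPM of 1 in 3 or more of the 24 libraries were tested as log2(TPM + 1) with limma 3.58.1 (R 4.3.3), group means and a mean-variance trend, all 24 libraries sharing the spread. Every adjusted p is Benjamini-Hochberg over all genes tested, two-sided, with a threshold of 0.05, and 7 comparisons were made. Beside these, the TGF-β1 responses in BCAA-free medium and with BCKA returned were fitted and called the same way. They are given without the full set of alternatives below. Intervals are 95% intervals of the fit.

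The members, the 31 gene lists and 7 marker lists were chosen with earlier results of these data known, and no list was tested as a set. Named genes were the 15 largest rises and 15 largest falls that passed, averaged 5 TPM or more in a group and had no overlap, 4 passing members per list, 8 genes per direction for each difference and 18 fixed genes; predicted genes were left out. The text gives part of these, and adds list members chosen after their values were seen. The alternatives tried were no filter, a filter at TPM 5, pseudocounts of 0.5 and 0.1, median centring, only the compared groups, array weights, a replicate block and leaving out libraries. For gene groups compared with BCAA-free medium, centring and leaving out the library that stands apart were chosen after seeing the data. The procedure was tested on simulated libraries with independent noise and a small set of genes changed by 2-fold. These held no library that stands apart and no shift of the median gene, so the test does not cover those conditions. Same-numbered PBS and TGF-β1 libraries with BCAA returned deviated together at r = 0.0954 to 0.219, and those with different numbers at -0.215 to 0.0902. The numbers were not taken as pairs, because no label says that a number pairs cultures. Promoters came from RefSeq (GRCm38.p6), matched by symbol, with 4 of 30 contractile and 5 of 38 ATF4 genes not in that table. The lung tables were not used here, and values of a few selected genes are left out.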

Additional observations from a re-analysis of the deposited data

Results flagged for a closer look

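In groups of 3 no single library can be tested as an outlier, so the results flagged here are differences between responses that passed the test. The TGF-β1 response with BCAA returned differed from that in BCAA-free medium for 5882 genes, and from that with BCKA returned for 3 genes.

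The 8 named genes with the most positive difference from the BCAA-free response were led by Acta1, at 5.57, from responses of 6.07 with BCAA returned and 0.50 without. The integrin Itga8 differed by 5.41, as it rose by 0.90 with BCAA returned and fell by 4.51 without. Cemip, which degrades hyaluronan, differed by 5.36, from 0.92 and -4.45. Aoc3, an amine oxidase, differed by 4.79 and Atp1b2, a sodium pump subunit, by 4.78, both lower with TGF-β1 in each medium. Calponin 1 (Cnn1) differed by 4.72, from 2.43 and -2.29. Vegfd and the proteoglycan Fmod differed by 4.67 and 4.57, with falls in both media.

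The 8 most negative differences were led by Tenm4, a teneurin, at -6.26, from 0.11 with BCAA returned and 6.36 without. Adra2a, an adrenergic receptor, differed by -5.80, and Chchd10, a mitochondrial protein, by -4.96. Igfbp3 fell by 1.64 with BCAA returned and rose by 2.90 without, a difference of -4.54. Avil and Car6 differed by -4.18 and -3.75. The stress genes Ddit3 and Trib3 differed by -3.60 and -3.60. Without replicate 1 of the BCAA-free TGF-β1 group these 16 differences kept their sign and passed.

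Against BCKA returned the differences were -1.39 for Dpt and -1.25 for Clec3b. Clec3b lost its call without any 1 of 11 of the 12 compared libraries, and kept it without replicate 2 of the PBS group with BCAA returned. Dpt lost its call with a pseudocount of 0.1 (adjusted p = 0.104), and Clec3b with one of 0.5 (adjusted p = 0.204) or 0.1. With BCAA returned Clec3b averaged 0.0559 TPM with TGF-β1, close to 0.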

How the results depend on the processing

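The counts over all genes kept within 1.5 times of their values in most settings, with the following exceptions. For BCAA returned, median centring gave 2550 higher and 2715 lower, and array weights gave 9132 genes, 2573 higher and 6559 lower. Only the compared groups gave 8648 genes, 2479 higher and 6169 lower, of which the first and last stayed within 1.5 times. In complete medium, centring gave 2789 higher and 3010 lower, and array weights 2478 higher. For the difference from complete medium, no filter and only the compared groups each gave 1 gene, and array weights 13. For the difference from BCAA-free medium, array weights gave 9903 genes, 3740 higher and 6163 lower. For the difference from BCKA returned, a pseudocount of 0.1 gave 1 gene, no filter 5, centring 5, only the compared groups 24 and array weights 220. For levels against complete medium with PBS, no filter gave 3 genes, only the compared groups 16 and array weights 9. With TGF-β1, a pseudocount of 0.5, centring and only the compared groups gave 0, no filter 1 and array weights 17. The cause was not tested.

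With 1 library left out, BCAA returned gave 4976 to 7278 genes (1273 to 1956 higher, 3703 to 5322 lower), complete medium 5398 to 7805 (1321 to 2100 higher, 4077 to 5705 lower), the difference from BCAA-free medium 5304 to 7040 (2122 to 2826 higher, 3179 to 4622 lower), the difference from BCKA 1 to 13, and levels with TGF-β1 0 to 2. The difference from complete medium and the levels with PBS stayed at 0. The highest count with BCAA returned came without replicate 1 of the BCAA-free TGF-β1 group.

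Of 138 genes named for the response with BCAA returned, 133 kept direction and call in all 15 alternatives. Under centring Fn1 turned to 0.098, Tgfbr1 to 0.0904 and Bckdk to 0.16. With 1 library left out, Fn1 ranged from -0.132 to 0.0201, positive without PBS replicate 3 or TGF-β1 replicate 2, and Bckdk from -0.0454 to 0.0343, positive without PBS replicate 1 or TGF-β1 replicate 3. Col3a1 and Bcat2 changed call.

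The replicate number as a block gave 5861 genes with BCAA returned (1517 higher, 4344 lower) and 5897 for the difference from BCAA-free medium, and moved no count over all genes by 1.5 times. As deviations from their group means, all 6 libraries with BCAA returned correlated best with the library of their own number in the other group. The same held for 2 of 6 in complete medium, 3 of 6 with BCKA returned and 4 of 6 in BCAA-free medium. That is a hint from the data, not the design.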

Other observations

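Wnt genes also moved with TGF-β1 when BCAA had been returned. Of 19 Wnt ligands and antagonists, 2 rose and 11 fell (3 higher and 11 lower after centring), with 1 rise when any of PBS replicates 1 and 2 and TGF-β1 replicates 1 and 3 was left out. Sfrp2 was 34.8, 34.0 and 35.3 TPM in the PBS libraries and 0.773, 0.766 and 0.922 TPM in the TGF-β1 libraries. The secreted Wnt antagonist was nearly lost from the TGF-β1 libraries, and it fell by 4.30 (adjusted p = 3.90e-18). Wnt4 fell from 17.6 to 0.714 TPM (-3.45), Rspo1 by 1.86 and Axin2, a target of β-catenin signalling, by 1.97. Hyaluronan genes gave 4 rises and 4 falls among 11 (5 higher and 2 lower after centring), with 2 falls without TGF-β1 replicate 2. Has2, the synthase, rose from 6.53 to 68.5 TPM (3.21), and Cd44, a receptor for hyaluronan, by 0.83.

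Folding genes of the endoplasmic reticulum fell in 12 of 26 and rose in 3 (4 higher and 9 lower after centring), against 33.2% lower and 11.5% higher of all genes tested. Hspa5, the chaperone BiP, was 1094, 1115 and 1052 TPM with PBS and 558, 628 and 559 TPM with TGF-β1 and fell by 0.90, while Ero1a, an oxidase of disulfide formation, rose from 115 to 331 TPM (1.52). DNA replication genes fell in 15 of 35 and rose in 3 (4 higher and 9 lower after centring), near the 11.5% higher and 33.2% lower of all genes tested, and Mcm6 of the helicase fell by 0.96. Of 23 p53 targets and senescence genes, 12 rose and 3 fell (14 higher and 1 lower after centring), with 1 fall without PBS replicate 2 or TGF-β1 replicate 1. Gdf15 and Plk2 rose by 1.92 and 1.36, and Cdkn2a did not pass, at -0.06.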
